A study of Homo sapiens with 30 samples.

Results

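The sites described here were the iCLIP peaks listed for myc-tagged LARP6 variants on mitochondrial RNA. A peak was a member when the peak list placed it on the mitochondrial chromosome (chrM, human genome GRCh38), whatever its score, and 346 of 48311 peaks in 5 lists were members. They were 103 of 14334 peaks for full-length LARP6 (FL), 93 of 17180 for ΔNTR, 99 of 15870 for ΔCTR, 42 of 636 for ΔLa-module and 9 of 291 for ΔNTD. Because the lists share sites, these are 346 listed peaks and not 346 separate places on the genome.

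LARP6 is an RNA-binding protein with a folded La-module between disordered regions. Individual-nucleotide crosslinking and immunoprecipitation (iCLIP) crosslinks protein to RNA in living cells with ultraviolet light and sequences the RNA that comes down with the protein. The cells were U-87 MG, an established human glioblastoma line, carrying by lentivirus an inducible, codon-optimised, myc-tagged LARP6 variant: FL, or a protein without the N-terminal disordered region (ΔNTR), the La-module (ΔLa-module), both of these (ΔNTD) or the C-terminal region (ΔCTR). The paper states that ΔLa-module and ΔNTD showed no RNA binding in cells, and left both out of its later analyses. Whether their listed peaks are binding sites was not tested here. Parental U-87 MG cells without a variant were the negative control, and all 6 lines were labelled as given 60 ng/mL doxycycline for 24 h. The variant lines were antibiotic-selected populations, and the labels give no depletion of the LARP6 that the cells make themselves. For iCLIP, 18 samples, 3 per line, reached these data as 1 list per variant, in which the authors had merged 3 replicates, summed the peak scores and removed peaks called in parental cells. Total RNA of each line was sequenced in 1 paired-end library with reads of 150 nt (PE150) and 1 single-end library with reads of 50 nt that the labels call small RNA (SE50).

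The libraries held between 25027075 and 28692476 gene counts in PE150 and between 6181270 and 10307756 in SE50. VIM ran from 7073 to 7986 CPM (gene counts scaled to a common library total) in PE150 and CD44 from 2079 to 2312, whereas the glial marker GFAP had at most 6 counts in any PE150 library. No list or library had a replicate, so no difference below was tested against the spread between cultures. Intervals are 95% intervals that treat peaks, scores or reads as counts, and they cover counting error only. The depth of the iCLIP libraries is unknown here, and nuclear peaks of the same lists serve as the comparison for that reason.

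Human mitochondrial DNA is transcribed from both strands into long precursors, and the tRNAs that lie between most genes are cut out to release the rRNAs and mRNAs. The mRNAs encode subunits of respiratory complexes I (the MT-ND genes), III (MT-CYB) and IV (the MT-CO genes) and of ATP synthase (MT-ATP6 and MT-ATP8), and are translated inside the organelle. MT-ND6 is the only one of these mRNAs transcribed from the other strand, and is written here on the minus strand.

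The sequences of the 5 highest-scored FL peaks are shown first, since the results below turn on them. Capitals mark the bases that also lay in a ΔLa-module peak, and the sequences are written in the direction of the transcript, from the GRCh38 reference. The peak in MT-CO2 (subunit of cytochrome c oxidase) lay at chrM:7673-7711 on the plus strand, that in MT-ND4 at chrM:11199-11268 on the plus strand, that in MT-ND6 at chrM:14337-14433 on the minus strand, that in MT-CYB (cytochrome b) at chrM:15412-15538 on the plus strand and that in MT-ND5 at chrM:12571-12631 on the plus strand.
MT-CO2: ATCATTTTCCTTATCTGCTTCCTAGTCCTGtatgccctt
MT-ND4: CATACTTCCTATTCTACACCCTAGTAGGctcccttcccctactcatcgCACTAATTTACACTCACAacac
MT-ND6: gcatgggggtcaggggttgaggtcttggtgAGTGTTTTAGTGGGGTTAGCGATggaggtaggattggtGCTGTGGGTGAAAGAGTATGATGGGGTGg
MT-CYB: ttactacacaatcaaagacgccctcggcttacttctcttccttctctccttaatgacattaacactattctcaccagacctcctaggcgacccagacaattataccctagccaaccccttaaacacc
MT-ND5: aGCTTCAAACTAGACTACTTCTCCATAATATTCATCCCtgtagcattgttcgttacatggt

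Cytosine and thymine made up 76.9% of the MT-CO2 sequence, 68.6% of the MT-ND4 sequence and 34.0% of the MT-ND6 sequence. The last of these had guanine at 49.5% of its bases, beside 35.6% over the whole of MT-ND6. Each of the 5 lay wholly within the single coding exon of its gene.

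Mitochondrial RNA held a small share of the FL list and a larger share of the ΔLa-module list. Of FL peaks, 0.719% (0.593 to 0.871%, Wilson) were mitochondrial, against 0.541% for ΔNTR and 0.624% for ΔCTR. The share was 6.60% (4.92 to 8.81%) of the ΔLa-module list and 3.09% of the ΔNTD list. Per peak, mitochondrial sites scored higher than nuclear ones in FL: the mean score was 15.0 against 7.11, and 52.4% of them against 13.2% of nuclear peaks had a score of at least 10. The score of a peak is the authors' sum over 3 replicates and was 3 at the least. Peaks at that minimum were 15.5% of mitochondrial and 54.0% of nuclear FL peaks. For ΔLa-module these shares were 47.6% and 78.8%, and for ΔNTD 55.6% and 83.7%. Mitochondrial FL peaks were also wider, with a median of 36 nt against 22 nt, and the difference was 47.5 against 36 nt among peaks with a score of at least 10.

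Relative to FL, the ΔLa-module list held more mitochondrial than nuclear peaks. It held 40.8% as many mitochondrial peaks as FL (27.8 to 58.9%, exact binomial) and 4.17% as many nuclear peaks. The odds ratio of the 2 was 9.77 (6.59 to 14.3, conditional exact interval). For ΔNTD, 9 mitochondrial peaks were 8.74% of the FL number against 1.98% for nuclear peaks, with an odds ratio of 4.41 (1.94 to 8.82). That ΔNTD value rests on few peaks: without peaks that have a nuclear copy it was 2.97 (0.933 to 7.28), an interval that holds 1, and with a score of at least 10 there was no mitochondrial ΔNTD peak. These are ratios of list sizes, and how far the lists share sites is given further on. By summed score the ΔLa-module list held 11.9% of the mitochondrial total (184 of 1549) and 2.11% of the nuclear total. 

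Without either disordered region, mitochondrial peaks were nearly as many as in FL, but their scores were lower. The number was 0.903 times that of FL in ΔNTR (0.675 to 1.21; 0.556, 0.343 to 0.884, among peaks with a score of at least 10) and 0.961 times in ΔCTR (0.722 to 1.28). The nuclear numbers were 1.20 and 1.11 times that of FL, and the odds ratios of mitochondrial against nuclear, 0.752 (0.561 to 1.01) and 0.867 (0.651 to 1.16), both had intervals that held 1. For ΔNTR the interval lay below 1 with scores above 3, at 0.700 (0.504 to 0.970), and without peaks that have a nuclear copy, at 0.676 (0.484 to 0.941). The summed mitochondrial score was 1549 for FL, 878 without the NTR and 1092 without the CTR. As a ratio to FL this was 0.567 against 0.910 for nuclear peaks in ΔNTR, and 0.705 against 1.16 in ΔCTR. Of all score in a list, mitochondrial RNA carried 1.51% for FL, 0.945% without the NTR and 0.920% without the CTR. The figure was 7.93% (6.90 to 9.10%) for ΔLa-module, in which the nuclear score was small, and 3.60% (2.61 to 4.95%) for ΔNTD.

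**Figure D1:**
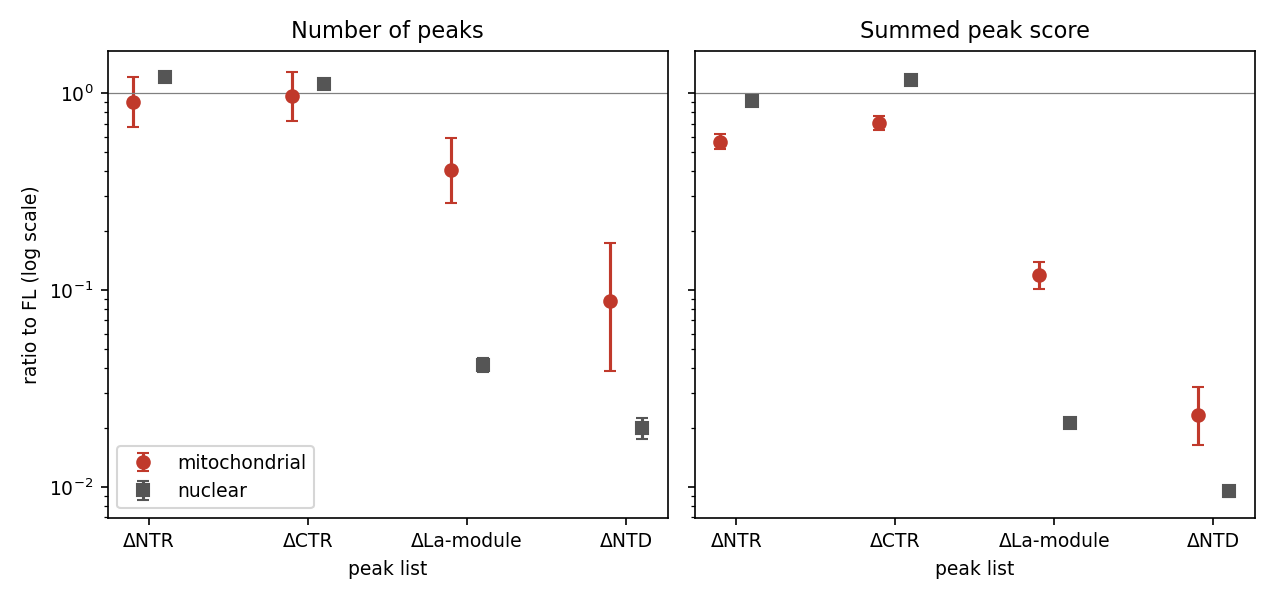
Ratio of each deletion list to the FL list (log scale) for the number of peaks (left) and for the summed peak score (right), for mitochondrial peaks (red circles) and nuclear peaks (grey squares). Bars are 95% counting intervals. For ΔLa-module the mitochondrial ratio of peaks was 0.408 and the nuclear ratio 0.0417.

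Nearly all mitochondrial peaks lay in mRNAs. In FL these were 97 of 103 peaks, with 1480 of the summed score of 1549, and 12 of the 13 mRNAs held at least 1 peak. MT-ATP8, a small subunit of ATP synthase whose gene overlaps MT-ATP6, held none in any list. The same count of 12 mRNAs held in ΔNTR, ΔCTR and ΔLa-module, and 5 mRNAs held a peak in ΔNTD. Longer mRNAs held more peaks, with a Spearman correlation of 0.94 between length and number over the 13 mRNAs in FL, a description over genes that share 1 list.

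Summed scores of single genes are given in the order FL, ΔNTR, ΔCTR and ΔLa-module. Among the genes of complex I, the NADH dehydrogenase that feeds electrons into the chain, MT-ND4 scored highest, with 283, 142, 182 and 24. MT-ND5 scored 187, 144, 160 and 19. MT-ND2 scored 83, 51, 68 and 10, and MT-ND1 scored 56, 39, 43 and 12, both in the membrane part of the complex. MT-ND4L, which shares a transcript with MT-ND4, scored 60, 27, 33 and 3. MT-ND3 had the lowest score of the mRNAs with a peak, with 30, 8, 30 and 3. The FL score was the highest of the 4, or equal highest, for each of these genes.

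MT-ND6 had the lowest ratio of ΔNTR to FL among the 12 mRNAs with a peak, 0.205 (0.114 to 0.348). Its ratio of ΔLa-module to FL was also 0.205, and only that of MT-ND1, 0.214, was higher. Its 4 FL peaks had a summed score of 83, and the lists without the NTR, the CTR and the La-module scored 17, 41 and 17. The guanine-rich peak shown above, with a score of 55, overlapped ΔNTR peaks with a summed score of 6, ΔCTR peaks with 20 and ΔLa-module peaks with 10.

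For cytochrome b of complex III, MT-CYB scored 169, 85, 92 and 6. Its 2 highest FL peaks, with scores of 54 and 46, overlapped no ΔLa-module peak. Of the 3 genes for subunits of cytochrome c oxidase, complex IV, MT-CO2 scored 148, 74, 67 and 13, MT-CO1 scored 133, 83, 104 and 21, and MT-CO3 scored 119, 79, 117 and 4. MT-ATP6, the proton-channel subunit of ATP synthase, scored 129, 78, 96 and 14. The score was below FL in all 12 mRNAs with a peak in ΔNTR and in 11 of 12 in ΔCTR, where MT-ND3 was equal.

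**Figure D2:**
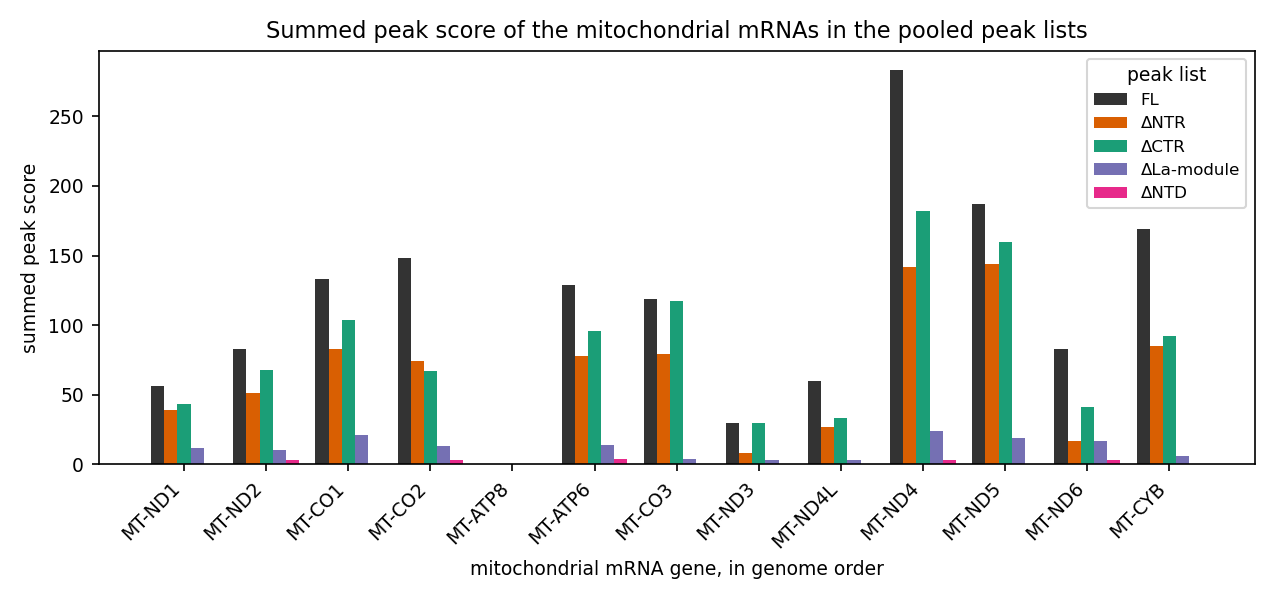
Summed peak score of each of the 13 mitochondrial mRNAs (horizontal axis, in genome order) in the 5 pooled lists, with bars starting at 0. FL is the highest bar of every mRNA with a peak, or equal highest for MT-ND3, and MT-ND4 reached 283.

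The order of the highest peaks differed between lists. After the 5 shown above, the FL list held MT-CYB chrM:15559-15669 (score 46), MT-ATP6 chrM:8588-8664 (45), MT-ND4 chrM:10848-10934 (40), MT-CO1 chrM:6206-6262 (37) and MT-ND4 chrM:11045-11095 (36), all on the plus strand. In ΔNTR the highest were MT-ATP6 chrM:8602-8720 (47), MT-CO2 chrM:7671-7707 (44), MT-ND4 chrM:11232-11297 (34), MT-CO3 chrM:9808-9899 (32) and MT-CO1 chrM:6196-6247 (28). In ΔCTR they were MT-ND4 chrM:11224-11277 (47), MT-CO2 chrM:7643-7710 (46) and MT-CO1 chrM:6184-6248 (44), followed by 3 peaks with a score of 32, in MT-ND5 (chrM:12347-12442), MT-CO1 (chrM:6429-6502) and MT-ATP6 (chrM:9007-9080). One site each in MT-CO2, MT-ND4 and MT-CO1 was among the 10 highest in all 3 lists.

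Most mitochondrial ΔLa-module peaks shared at least 1 nt with an FL peak. Of the 42, 31 did so (73.8%), against 21.5% of 594 nuclear ΔLa-module peaks. FL peaks lay close together on chrM and covered 23.9% of its plus strand. Their coverage of the mRNAs with a peak ran from 23.0% (MT-CO1) to 58.7% (MT-ND3). The overlap that coverage alone would give was not computed, and coverage was not matched between mitochondrial and nuclear RNA. The highest ΔLa-module peak was in MT-TT, the tRNA for threonine, at chrM:15896-15929 with a score of 13. It was followed by MT-CO2 chrM:7672-7702 and MT-ATP6 chrM:8650-8708, both with a score of 10. MT-CO1 chrM:6462-6504 and MT-ND6 chrM:14146-14198 scored 7, and MT-RNR2 chrM:2594-2620, MT-ND1 chrM:3719-3755 and MT-ND6 chrM:14381-14403 scored 6. The MT-RNR2 and MT-ND1 peaks overlapped no FL peak, and the MT-ND1 peak overlapped no peak of any other list. By gene the 42 peaks were 7 in MT-ND4, 5 each in MT-CO1 and MT-ND5, 3 each in MT-ND1, MT-ND2, MT-ND6 and MT-RNR2, 2 each in MT-CO2, MT-ATP6 and MT-CYB, 4 in tRNAs and 1 each in MT-CO3, MT-ND3 and MT-ND4L. Only 3 of them had a score of at least 10.

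The 9 ΔNTD peaks had scores of 3, 4 or 9. They lay in MT-RNR2 (chrM:1958-1983, chrM:2595-2624 and chrM:2878-2897), MT-ND2 (chrM:5109-5125), MT-CO2 (chrM:7683-7699), MT-ATP6 (chrM:8642-8662), MT-ND4 (chrM:11379-11395) and MT-ND6 (chrM:14182-14201, minus strand), with 1 centred outside genes at chrM:4393-4409. The one that scored 9 lay in MT-RNR2, the large rRNA of the mitochondrial ribosome, and overlapped a ΔLa-module peak but none of FL, ΔNTR or ΔCTR. That stretch, with the bases shared with ΔNTD in capitals, is shown as the ΔLa-module peak at chrM:2594-2620 on the plus strand.
MT-RNR2: tAGCATAATCACTTGTTCCTTAAATAG

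Ribosomal and transfer RNAs held few peaks, and reads that matched rRNA or tRNA had been removed by the authors before alignment, so these numbers cannot be compared with mRNAs. Which mitochondrial rRNA and tRNA sequences that removal covered is not given in the sources used here. FL had 0 rRNA peaks and 4 tRNA peaks. ΔNTR had 4 in MT-RNR2, with a summed score of 44, ΔCTR had 1 in MT-RNR1 (score 4), ΔLa-module had 3 in MT-RNR2 (14) and ΔNTD had 3 there (16). The tRNA with the highest FL score was MT-TT at 32, given here with the bases that lay in a ΔLa-module peak in capitals (chrM:15894-15938, plus strand). It had a score of 17 in ΔCTR and no overlapping peak in ΔNTR. MT-TL1, for leucine, scored 18 in FL and 4 in ΔLa-module. MT-TL2, also for leucine, scored 3 in FL, 22 in ΔCTR and 4 in ΔLa-module, and MT-TS2, for serine, scored 4 in FL. Of the other tRNAs, MT-TQ scored 3 in ΔNTR and 3 in ΔLa-module, and MT-TW scored 3 in ΔCTR.
MT-TT: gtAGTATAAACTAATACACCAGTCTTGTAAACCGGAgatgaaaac

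The strand of the peaks followed that of the genes. In FL 98 peaks were on the plus strand and 5 on the minus strand, of which 4 were in MT-ND6 and 1 (chrM:5573-5589, score 3) had its centre in no gene. A plus-strand peak at chrM:7508-7525, centred just before the aspartate tRNA gene MT-TD, was listed with the same ends for FL (score 9), ΔNTR (4) and ΔCTR (9). No peak with a score of at least 10 lay antisense to a mitochondrial gene outside a gene of its own strand. Along the mRNAs, the first, middle and last parts of equal length held 36, 32 and 29 FL peaks, 22, 31 and 34 ΔNTR peaks, and 29, 34 and 30 ΔCTR peaks. In FL 5.15% of the 97 mRNA peaks had their centre within 50 nt of the 5′ end and 4.12% within 50 nt of the 3′ end, where each of these stretches made up 5.70% of the mRNA length.

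High-scored sites recurred between lists. Of the 103 FL peaks, 64.1% overlapped a ΔNTR peak (nuclear 35.1%) and 72.8% a ΔCTR peak (nuclear 37.7%), sharing at least 1 nt on the same strand. On the plus strand of chrM, ΔNTR peaks covered 19.1%, ΔCTR peaks 21.6% and ΔLa-module peaks 6.41%. Overlap from coverage alone was not computed, so mitochondrial and nuclear shares are not matched for it. The order of the compartments differed with the FL score. Among FL peaks at the minimum of 3, 37.5% of 16 mitochondrial and 16.9% of 7678 nuclear peaks overlapped ΔNTR, and 43.8% and 18.0% overlapped ΔCTR. Among those scored 4 to 9 the shares were 51.5% and 43.5% for ΔNTR, and 63.6% and 47.6% for ΔCTR. Among those scored 10 to 29, 75.6% of 41 mitochondrial and 85.2% of 1436 nuclear peaks overlapped ΔNTR, and 82.9% and 91.6% overlapped ΔCTR. With ΔLa-module the mitochondrial share was the higher in every score class. This list overlapped 69.2% of the 13 mitochondrial FL peaks with a score of 30 or more (42.4 to 87.3%) and 9.11% of the 439 nuclear ones (6.76 to 12.2%), and 29.3% against 2.65% among those scored 10 to 29. It also overlapped 21.2% of 33 against 0.641% for scores of 4 to 9. All of the 13 mitochondrial FL peaks with a score of 30 or more overlapped a ΔCTR peak, and 12 overlapped a ΔNTR peak. Of the 103, 58 overlapped peaks of both ΔNTR and ΔCTR, 17 of ΔCTR alone, 8 of ΔNTR alone and 20 of neither, and 21 overlapped all of ΔNTR, ΔCTR and ΔLa-module.

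**Figure D3:**
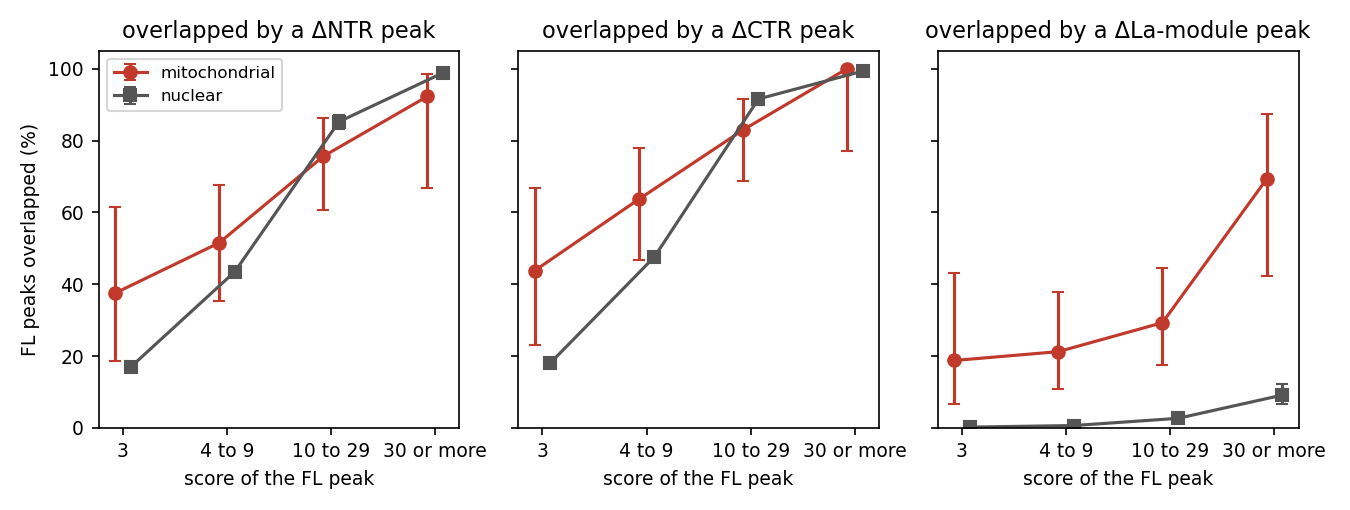
Percent of FL peaks that overlapped a ΔNTR (left), ΔCTR (middle) or ΔLa-module (right) peak by at least 1 nt on the same strand, by the score of the FL peak, for mitochondrial (red circles) and nuclear (grey squares) peaks. Bars are 95% Wilson intervals. How densely peaks covered the RNA was not matched between mitochondrial and nuclear peaks. With ΔLa-module, 69.2% of mitochondrial and 9.11% of nuclear FL peaks of the highest class overlapped.

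Where 1 peak from each of these 3 lists met at a single site, mitochondrial scores were lower in both deletions. Meeting meant sharing at least 1 nt, and the widths of the peaks that met were not matched. The 17 mitochondrial sites had summed scores of 320, 152 and 194, a ratio to FL of 0.475 (0.389 to 0.578) in ΔNTR and 0.606 (0.505 to 0.727) in ΔCTR. The 2221 nuclear sites had ratios of 0.634 and 1.13. In ΔNTR, the score was below FL at each of the 6 sites whose scores averaged 10 or more, and at 76.1% of 854 such nuclear sites. The summed ratio to FL at these sites was 0.438 (0.338 to 0.565) for mitochondrial and 0.570 for nuclear RNA. Of the 6, MT-ND2 (chrM:4913-4988) had the lowest ratio of ΔNTR to FL, 0.125 (0.0241 to 0.412), with 24 for FL, 3 for ΔNTR and 22 for ΔCTR. The FL peak there was 76 nt wide and the ΔNTR peak 17 nt, so unlike stretches were compared. In MT-ATP6 at chrM:9128-9179 the ΔNTR peak, of 75 nt, was wider than the FL peak, of 52 nt. In MT-ND4 at chrM:11496-11562 the widths were 67 nt for FL and 18 nt for ΔCTR. The FL, ΔNTR and ΔCTR scores there were 26, 15 and 3, and at chrM:10848-10934 they were 40, 18 and 12. In MT-ND5 at chrM:12571-12631 they were 54, 17 and 26, and in MT-ATP6 at chrM:9128-9179 they were 22, 8 and 15. The MT-CO1 site at chrM:6206-6262 had 37, 28 and 44, and was the 1 of the 6 that was higher in ΔCTR than in FL.

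The ΔLa-module list held more peaks for each FL peak in abundant nuclear mRNAs too. Level was taken as PE150 counts per kb of exon in the FL line. The ΔLa-module list held 3.70% as many peaks as FL in all nuclear protein-coding genes with at least 10 counts, 5.66% in the 233 with at least 3000 counts per kb, 13% in the 34 with at least 10000 and 28.6% (16.9 to 46.4%) in the 7 with at least 30000. The mitochondrial mRNAs, with a median of 43480 counts per kb, stood at 36.1% (23.8 to 53.6%). These percentages are ratios of list sizes, not of shared sites. Against those 7 nuclear genes the odds ratio was 1.26 (0.658 to 2.46), and against the 34 it was 2.77 (1.64 to 4.66). For ΔNTD the mRNA odds ratio was 2.85 (0.897 to 6.97) against all nuclear genes. By summed score the 7 nuclear genes stood at 2.13% of FL and the mitochondrial mRNAs at 9.86% in ΔLa-module. The part of abundance in the number of peaks was not tested, and these levels of the nuclear genes were chosen after the data were seen.

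**Figure D4:**
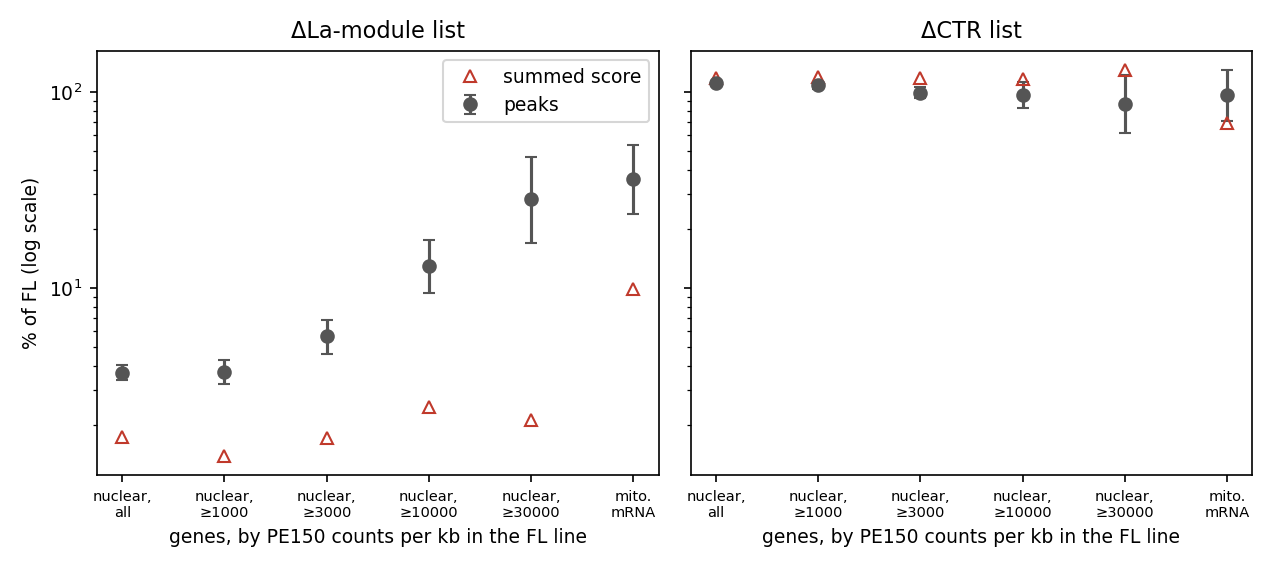
Peaks (grey circles, with 95% intervals) and summed score (red triangles) in the ΔLa-module list (left) and the ΔCTR list (right) as a percentage of FL, on a log scale, for nuclear protein-coding genes by their PE150 counts per kb and for the mitochondrial mRNAs. In ΔLa-module the percentage of peaks was 3.70% over all nuclear genes, 28.6% in the most abundant and 36.1% in mitochondrial mRNAs.

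The lower mitochondrial score of ΔNTR and ΔCTR was also seen against abundant nuclear genes. In the same 7 nuclear genes with at least 30000 counts per kb, the summed score was 73.0% of FL in ΔNTR and 129% in ΔCTR, whereas in the mitochondrial mRNAs it was 55.9% and 69.8%. Scores were next divided by PE150 gene counts of the same line, times 1000. The FL, ΔNTR and ΔCTR medians over the 12 mRNAs with a peak were 2.83, 1.87 and 2.29, and those over nuclear genes were 3.58, 3.92 and 4.14. MT-CO1, the most abundant mRNA, had the lowest value in FL, 0.659, and MT-ND4L and MT-ND6 the highest, 15.2 and 14.1. Counts of MT-ND4L and MT-ATP8 leave out reads that also lie in the gene overlapping them, which lowers the divisor.

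Input-normalised share gives each gene's part of the list total, less the difference in its input. It is on the log2 scale, over genes whose scores in the pair of lists added to 50 or more. For ΔNTR, 1 of the 11 mitochondrial mRNAs that passed this minimum was at least 2-fold below FL, MT-ND6 at -1.63, and 13.1% of all 803 genes were. For ΔCTR, 3 of 12 were, MT-CO2 at -1.31, MT-CYB at -1.11 and MT-ND6 at -1.04, against 5.97% of 905 genes. The median of the mitochondrial mRNAs was -0.47 in ΔNTR and -0.52 in ΔCTR, beside -0.02 over all genes in each. All 11 and all 12 were below 0, beside 50.8% and 51.4% of all genes. Both sets of values share the FL list and are not independent. With the SE50 input the counts were larger, in the mRNAs as in all genes: 5 of 11 for ΔNTR, beside 20.9% of all genes, and 6 of 12 for ΔCTR, beside 18.7%. All 11 were then below 0 for ΔNTR and 11 of 12 for ΔCTR, beside 63.4% and 70.6% of all genes.

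In plus-strand mRNAs the sequence at the peaks was on average richer in pyrimidines than the mRNAs around it in FL, ΔNTR, ΔCTR and ΔLa-module. The FL interval held 0. In the central 31 nt of the peaks in the 12 plus-strand mRNAs, C and T together were 60.8% ± 9.92 of bases for FL (SD over 93 peaks) and 61.6% ± 9.59 for ΔNTR (83 peaks). They were 63.3% ± 8.59 for ΔCTR (87 peaks) and 62.8% ± 9.38 for ΔLa-module (32 peaks). All 10510 windows of that length in these mRNAs averaged 58.8% ± 9.58. Against the whole mRNA of each peak the FL difference was 1.98 points, with an interval of -0.04 to 3.99. It was 2.68 points for ΔNTR (0.61 to 4.74) and 4.35 points for ΔCTR (2.54 to 6.16), with intervals from the spread over peaks, which share mRNAs and are not replicates. Among the 50 FL peaks with a score of at least 10 the difference was 3.30 points, with no interval computed from their own spread. For ΔLa-module the difference was 3.98 points, without an interval. Windows above the upper quartile of 64.5% were 40.9% of FL, 42.2% of ΔNTR, 49.4% of ΔCTR, 46.9% of ΔLa-module and 23.1% of all windows. The windows of MT-ND6 averaged 44.9%. Its peaks were poorer in pyrimidines in FL (39.5% over 4), ΔNTR (40.3% over 4) and ΔLa-module (37.6% over 3). In ΔCTR, at 45.2% over 6, they were not.

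Copies of mitochondrial sequence in nuclear DNA bear on where reads could be placed. Of 31-nt stretches of chrM, 37.6% had an exact copy on a nuclear chromosome of GRCh38, and 36.0% of those within mRNAs, with 69.7% in MT-CO1 and 7.11% in MT-CYB. The central 31 nt of a peak had such a copy for 17.5% of FL and 25.8% of ΔNTR peaks, and for 27.3% of ΔCTR and 33.3% of ΔLa-module peaks. Where there was no copy, the ΔLa-module list held 32.9% of the FL number of peaks, and the summed scores of ΔNTR, ΔCTR and ΔLa-module were 51.1%, 63.0% and 10.0% of FL. Where there was a copy the scores were 82.7%, 106% and 20.6%. The odds of a copied over an uncopied peak, relative to FL, were 1.64 for ΔNTR (0.781 to 3.49), 1.77 for ΔCTR (0.858 to 3.70) and 2.35 for ΔLa-module (0.949 to 5.75), and each interval held 1. Nuclear pseudogenes of mitochondrial genes, 404 in all by symbol, held from 1023 to 1414 PE150 counts per line. Only MTATP6P1, MTND4P12 and MTCO1P2 held peaks, with scores of 3 to 8.

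Mitochondrial mRNA levels in total RNA were somewhat lower than parental in the PE150 libraries of some lines. Reads on the same genes in the small-RNA libraries (SE50), an unlike measure, were higher. The 13 mRNAs held 2.69% of parental PE150 gene counts. With FL they held 2.47%, with ΔNTR 2.27%, with ΔCTR 2.42%, with ΔLa-module 2.54% and with ΔNTD 2.21%. MT-CO1 was the highest, with 215239 counts in parental and 201857 in FL cells, and MT-ATP8 the lowest, with 143 and 185. Against parental cells the median log2 fold change over the 12 mRNAs with at least 10 CPM was -0.09 with FL, -0.23 with ΔNTR and -0.13 with ΔCTR. It was -0.05 with ΔLa-module and -0.36 with ΔNTD. The lowest values were -0.48 for MT-ND6 and MT-ND1 in ΔNTD, and all 12 mRNAs were below parental in ΔNTR and in ΔNTD, beside 56.2% and 54.1% of all genes tested. In SE50, where 10 mRNAs passed 10 CPM on far fewer reads, the medians had the opposite sign, at 0.37 with FL, 0.65 with ΔNTR, 0.48 with ΔCTR, 0.42 with ΔLa-module and 0.68 with ΔNTD. The medians over all SE50 genes were -0.22, 0.17, 0.14, -0.25 and 0.21 in that order. The order of the genes also differed between the protocols. In parental cells MT-ND6 had 199 CPM and MT-CO1 15.6 in SE50, against 184 and 8066 in PE150. The SE50 values are therefore not read as mRNA levels. In bulk RNA, fewer cells with a transcript and less of it per cell cannot be told apart.

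No mitochondrial gene differed from parental cells by 2-fold or more in PE150. This was 0 of 14 genes tested in each line, on the log2(CPM + 1) scale among genes with at least 10 CPM in either library, beside 0.042% of all genes with FL, 0.718% with ΔNTR and 0.0526% with ΔCTR. For ΔLa-module and ΔNTD these background shares were 0.429% and 0.335%. Of the 2 rRNAs, MT-RNR2 had 4371 counts in parental and 6612 in FL cells, a log2 fold change of 0.53, and MT-RNR1 had 891 and 1307, or 0.47. The ΔLa-module values were 0.35 and 0.46, and the highest rRNA value was 0.57, for MT-RNR1 in ΔNTD, where MT-RNR2 was at 0.08. In the same order, MT-RNR2 and MT-RNR1 were at -0.14 and -0.01 with ΔNTR and at -0.22 and 0.01 with ΔCTR. Few reads fell on these rRNAs: MT-RNR2 had 164 CPM in parental cells, against 8066 for MT-CO1.

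**Figure D5:**
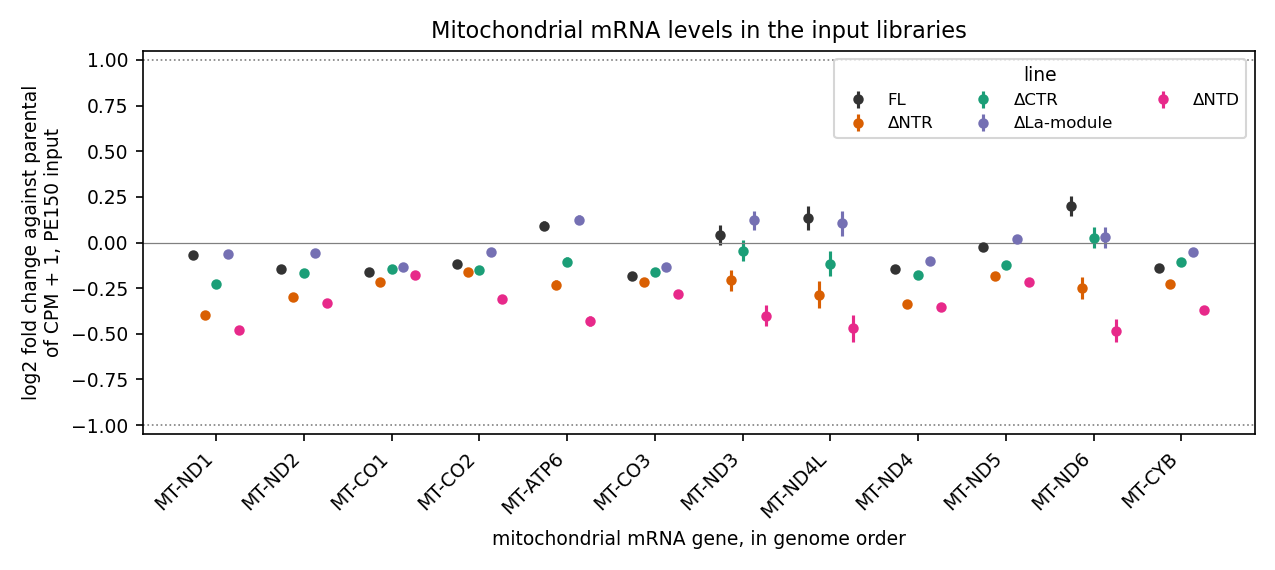
Log2 fold change against parental cells of the 12 mitochondrial mRNAs with at least 10 CPM, in the PE150 input of each line (1 library per line). Bars are 95% counting intervals and the dotted lines mark 2-fold. The ΔNTD points are the lowest of most genes, with a median of -0.36.

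The small-RNA libraries held few mitochondrial reads, between 0.142% and 0.278% of gene counts. In these, 16 mitochondrial genes passed 10 CPM and 2 differed by 2-fold or more with FL (background 16.1% of all genes), 2 with ΔNTR (9.79%) and 1 with ΔCTR (6.76%). There was 1 with ΔLa-module (16.5%) and 4 with ΔNTD (12.5%). MT-ND3 was higher with FL and ΔNTD, MT-ATP6 with ΔNTR, and both rRNAs with ΔNTD. MT-TS2, a serine tRNA, had 5497 parental counts, 1534 with FL and 4082 with ΔNTR, then 3507 with ΔCTR, 1570 with ΔLa-module and 7812 with ΔNTD, and was at least 2-fold lower with FL and ΔLa-module. MT-TL1 had 148, 151, 263, 336, 191 and 688 counts in that order, and was at least 2-fold higher than parental in ΔNTR, ΔCTR and ΔNTD. MT-TF, for phenylalanine, had 2409 counts in parental and 3578 in ΔNTD cells, and 11 of 22 tRNAs were at 0 in every PE150 library. In SE50 6 tRNAs were at 0 throughout. The counter assigned from 40.4 to 54.0% of SE50 reads to no single gene because several matched.

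Reads on the strand opposite to a gene were counted for most mRNAs. For MT-ND6 they outnumbered its own, at 17946 against 5891 in FL cells. The opposite strand there is the one that carries MT-ND5 and MT-CYB. For MT-ND5 they were 19561 against 69450, and for MT-CO1 4826 against 201857.

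Nuclear genes for proteins that handle mitochondrial RNA were looked at as a list. Of 33 such genes, 9 held a peak of FL (27.3%, beside 36.0% of all nuclear coding genes with at least 10 counts), 10 of ΔNTR (30.3%, beside 36.7%) and 13 of ΔCTR (39.4%, beside 38.4%). There was 1 with a ΔLa-module peak (3.03%, beside 3.37%) and 0 with a ΔNTD peak (beside 1.82%). TUFM, the mitochondrial elongation factor, had the highest summed score, with 45, 51 and 46 for FL, ΔNTR and ΔCTR. SLIRP, the partner of LRPPRC in stabilising mitochondrial mRNAs, scored 19, 0 and 6. LRPPRC itself scored 0, 6 and 13. None of the 30 or 31 tested in PE150 differed from parental cells by 2-fold, and their log2 fold changes ran from -0.29 to 0.41.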

How the data were processed

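Peaks and counts were taken as deposited. The authors trimmed iCLIP reads with Trim Galore, discarded reads matching rRNA or tRNA with Bowtie2, aligned the rest to GRCh38.p13 with STAR (version not given in the sources used here), removed duplicates with UMI-tools and called peaks with Clippy. They summed peak scores over 3 replicates and removed parental peaks with bedtools 2.30.0. The score is a whole number not scaled to depth. Input counts are the authors' STAR 2.7.10b counts per gene, per strand. Reads not counted for a single gene (34.4 to 37.8% in PE150, 62.3 to 71.8% in SE50) stayed out of the totals. They include reads that matched several genes or several places.

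Peaks were assigned by their centre to genes of the GENCODE annotation supplied for GRCh38, which is newer than that of the study. Input differences were taken on the log2(CPM + 1) scale among genes with at least 10 CPM. Exact copies were 31-nt stretches of chrM sought on all nuclear chromosomes. All mRNAs and rRNAs were named, tRNAs where one held a peak, and the highest peaks, the shared sites and all ΔLa-module and ΔNTD peaks by rule; ΔLa-module peaks under a score of 6 are given by gene. The members and lists were chosen with earlier results of these data known. Python 3.11.15, scipy 1.17.1 and edgeR 4.0.16 (scaling factors only) were used, and scripts were tested on simulated data. No test across samples was possible.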

Additional observations from a re-analysis of the deposited data

How the results depend on the processing

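No paired analysis was possible because each iCLIP list pools its replicates and each line has 1 input library per protocol. No replicate was left out, since the peak lists used here are pooled, and no interval covers the difference between cultures. Of the main values recomputed under an alternative, 128 stayed within the counting interval or, for counts, within 1.5 times, 45 moved further and 2 reversed. The reversed values, both for ΔNTD at a score of at least 10, where no mitochondrial peak is left, were the odds ratio (from 4.41 to 0, interval up to 53.6) and the ratio of score share (from 2.39 to 0). The mRNA odds ratio also crossed 1 against nuclear genes of at least 30000 counts per kb, from 2.85 to 0.795 for ΔNTD and from 0.865 to 1.1 for ΔCTR, with intervals that held 1 throughout. Joining nearby peaks, assigning peaks by most overlapping nt, using the whole peak as the window and leaving out the highest-scored peak moved none. A higher score minimum leaves fewer peaks, and the cause of the other shifts was not tested. With peaks scored above 3, ΔLa-module held 22 and ΔNTD 4 mitochondrial peaks. With a score of at least 10, FL held 54, ΔNTR 30, ΔCTR 44, ΔLa-module 3 and ΔNTD 0, and the ratio of peaks to FL became 0.556 for ΔNTR, 0.0556 for ΔLa-module (0.253 above 3) and 0 for ΔNTD, whose odds ratio became 0. The mitochondrial share of score was then 2.39, 1.74, 1.25, 14.0 and 0% in that order of lists (above 3, 1.88, 1.26, 1.1, 14.5 and 7.61%), and without MT-ND4 it was 1.24, 0.793 and 0.767% for FL, ΔNTR and ΔCTR. The ratio of that share to FL became 0.728 for ΔNTR, 0.525 for ΔCTR and 0 for ΔNTD at 10 or more, and 7.69 for ΔLa-module and 4.04 for ΔNTD above 3. Requiring 50% of both peaks, FL peaks overlapped ΔNTR, ΔCTR, ΔLa-module and ΔNTD in 35.0, 38.8, 16.5 and 0.971%, and above a score of 3 the last 2 were 17.2 and 1.15%. C and T at ΔNTR peaks exceeded their mRNA by 5.31 points at a score of at least 10. With edgeR's TMM factors the median log2 fold change was -0.34 with ΔNTD in PE150, and 0.17 with ΔCTR and 0.37 with ΔNTD in SE50. The ΔCTR interval in SE50 (-0.07 to 0.41) then held 0, which it had not done before. With SE50 as the input, score per count of mitochondrial over nuclear genes was 0.672, 0.352 and 0.495 for FL, ΔNTR and ΔCTR. Among alternatives chosen after seeing the data, the ΔLa-module odds ratio of mRNA peaks was 2.77 and 1.26 against nuclear genes of at least 10000 and 30000 counts per kb, that of ΔNTD 0.795 against the latter, and the ΔLa-module score ratio was 7.25 times that of nuclear coding peaks.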
